A study of Mus musculus with 2 samples.

Results

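The 10 genes described here encode receptors with which macrophages take up dying cells, modified lipoproteins and glycoproteins, and 2 ligands of such receptors. They were taken by symbol from a list, which was chosen with earlier results of these data known. All 10 were found among the 31053 genes counted in both libraries. Axl and Mertk are receptor tyrosine kinases of the TAM family, and Gas6 and Pros1 are the secreted proteins that bridge them to phosphatidylserine on dying cells. Stab1 (stabilin-1) also binds phosphatidylserine and modified lipoproteins, Msr1 is the class A scavenger receptor, Scarb1 is the class B receptor for high-density lipoprotein, Mrc1 is the mannose receptor, Cd163 takes up haemoglobin bound to haptoglobin, and Cd300lb is an activating lipid-binding receptor of the CD300 family.

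The cells were live CD45-positive, Epcam-negative cells sorted from pancreatic islets of male C57BL/6J mice on chow diet. Each library was made from a pool of 6 to 8 animals. One library carries the label 12 weeks and the other the label 1 week. What the weeks count is not stated, no genotype, allele or agent is given, and each label has 1 library from an experiment of its own, so label and experiment cannot be told apart. Transcripts were counted at their 3' ends with unique molecular identifiers (UMIs), so that levels of different genes, given as CPM (a UMI count scaled to a total of 1000000 UMIs), need no correction for transcript length.

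Cells that engulf dying neighbours recognise phosphatidylserine directly or through bridging proteins, and digest the meal in lysosomes. In mouse islets the resident macrophages are known to express Cx3cr1, Itgax and MHC class II genes, whereas Mrc1 and Cd163 are used as marks of the macrophages of the exocrine tissue and of vessel walls. Macrophages were taken as cells whose C1qa, C1qb and C1qc counts summed to 5 UMIs or more, the genes of the complement component C1q. The remaining cells are called C1q-low. The 12-week library held 1620 macrophages and 132 C1q-low cells, and the 1-week library 1243 macrophages and 97 C1q-low cells. Macrophages had medians of 6890.5 UMIs at 12 weeks and 7401 UMIs at 1 week, and C1q-low cells had medians of 3920 and 6499 UMIs at the same labels. The totals were 12448628 UMIs at 12 weeks and 12858754 UMIs at 1 week, and 3 barcodes occurred in both libraries. The 9 islet macrophage markers, none of which set the gate, summed to 73989.6 CPM in macrophages at 12 weeks and 68809.5 at 1 week, against 36563 and 30562 in the C1q-low cells of immune type, which also express MHC class II genes.

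The C1q-low group did not hold immune cells only. It contained 7 endocrine-like droplets at 12 weeks and 25 at 1 week, and hormone transcripts took 9.75% of its UMIs at 12 weeks and 40.0% at 1 week, against 0.574% and 1.97% of macrophage UMIs. Levels are therefore given beside those of the C1q-low immune cells, 123 at 12 weeks and 71 at 1 week, from which endocrine- and endothelial-like clusters were left out. These immune cells were T-like (40 at 12 weeks, 10 at 1 week), B-like (29 and 26), dendritic-like (27 and 10), macrophage-like but under the C1q gate (11 and 15), neutrophil-like (10 and 1) and monocyte-like (6 and 9). The macrophage-like ones were shallow, with medians of 2366 UMIs at 12 weeks and 1652 at 1 week. The gate counts C1q UMIs without regard to depth, so these cells are not shown to have little C1q. The macrophages, set by the gate alone, likewise included some cells of other clusters. Of 55 T-like cells at 12 weeks 40 were C1q-low. Of 41 B-like and 31 endocrine-like cells at 1 week 26 and 25 were C1q-low. The rest were counted as macrophages.

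Promoter windows of 4 of the receptors are shown, because these are the 2 receptors of the TAM family and the pair whose levels came next in abundance. Each line is the 250 bases before the RefSeq start on the gene's own strand in GRCm38.p6, at chr7:25788734-25788983 on the minus strand for Axl, chr2:128698665-128698914 on the plus strand for Mertk, chr14:31168642-31168891 on the minus strand for Stab1 and chr2:14229164-14229413 on the plus strand for Mrc1. Capitals mark matches on either strand to the GC box GGGCGG and to the ETS-type core AGGAAG.
Axl: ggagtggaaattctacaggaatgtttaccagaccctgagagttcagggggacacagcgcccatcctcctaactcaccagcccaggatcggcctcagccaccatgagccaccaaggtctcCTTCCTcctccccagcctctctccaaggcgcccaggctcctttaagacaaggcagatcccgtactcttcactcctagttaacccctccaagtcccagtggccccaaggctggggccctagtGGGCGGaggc
Mertk: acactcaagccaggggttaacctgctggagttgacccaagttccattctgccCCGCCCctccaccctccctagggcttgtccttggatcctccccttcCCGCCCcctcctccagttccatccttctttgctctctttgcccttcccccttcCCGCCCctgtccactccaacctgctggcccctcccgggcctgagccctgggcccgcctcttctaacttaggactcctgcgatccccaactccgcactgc
Stab1: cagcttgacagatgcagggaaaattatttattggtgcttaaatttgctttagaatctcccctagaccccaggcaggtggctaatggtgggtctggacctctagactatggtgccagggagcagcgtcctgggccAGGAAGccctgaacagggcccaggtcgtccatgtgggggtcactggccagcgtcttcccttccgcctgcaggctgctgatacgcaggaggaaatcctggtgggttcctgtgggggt
Mrc1: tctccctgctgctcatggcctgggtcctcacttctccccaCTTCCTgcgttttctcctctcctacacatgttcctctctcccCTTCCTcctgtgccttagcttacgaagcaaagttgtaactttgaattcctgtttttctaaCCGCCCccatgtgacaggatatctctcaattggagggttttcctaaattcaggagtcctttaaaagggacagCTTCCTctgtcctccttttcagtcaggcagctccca

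The GC box occurred once in the Axl window, 3 times in that of Mertk, once in that of Mrc1 and not in that of Stab1, and 32.7% of 32851 windows of the same length held it. The ETS-type core occurred once in the Axl window, once in that of Stab1, 3 times in that of Mrc1 and not in that of Mertk, against 29.5% of all windows. The interferon-stimulated response element core (2.98% of windows), the AP-1 motif TGANTCA (6.75%), the antioxidant response element core TGACNNNGC (10.2%) and TATAAA (12.4%) had no match in these 4 windows. Of the 10 genes, 8 had an entry in the promoter table. In the GENCODE annotation of GRCm38 Axl spans bases 25757273 to 25788705 of chromosome 7, Mertk 128698956 to 128802894 of chromosome 2, Stab1 31139013 to 31168641 of chromosome 14 and Mrc1 14229392 to 14332057 of chromosome 2. Stab1 overlaps Nt5dc2 on the opposite strand.

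Axl was by far the most abundant of the 10 transcripts in islet macrophages. It stood at 233.4 CPM at 12 weeks and 252.1 at 1 week, and made up 62.8% of the members' 4253 UMIs at 12 weeks and 64.6% of their 4453 UMIs at 1 week. Stab1 followed with 58.8 CPM at 12 weeks and 76.8 at 1 week. Mrc1 came next in both libraries, with 29.4 at 12 weeks and 17.6 at 1 week. The counting intervals of these 3 genes overlapped neither one another nor those of the genes below them.

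Below them the order was not the same in both libraries. Cd300lb had 15.4 CPM at 12 weeks and 9.64 at 1 week, Msr1 10.8 and 10.1, Mertk 9.002 and 5.08, Pros1 6.56 and 9.38, and Scarb1 6.38 and 8.15. In the 12-week library the intervals of Msr1, Mertk and Pros1 each overlapped that of the gene next below, and Scarb1 stood last of these 5. In the 1-week library those of Msr1, Cd300lb and Pros1 did so, while Mertk lay below Scarb1 without overlap. Among the TAM receptors Axl thus dominated over Mertk in both libraries, and Tyro3, the remaining receptor of the family, had 1 UMI in the macrophages of each.

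Of the 2 ligands, Pros1 was the more abundant. Gas6 had 19 UMIs in 14 macrophages at 12 weeks (1.66 CPM) and 17 UMIs in 15 macrophages at 1 week (1.49 CPM). Cd163 was the rarest member. It had 5 UMIs at 12 weeks, 4 of them in 1 cell and 1 in another, and 0 UMIs in 11406907 at 1 week, which allows up to 0.263 CPM.

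**Figure D1:**
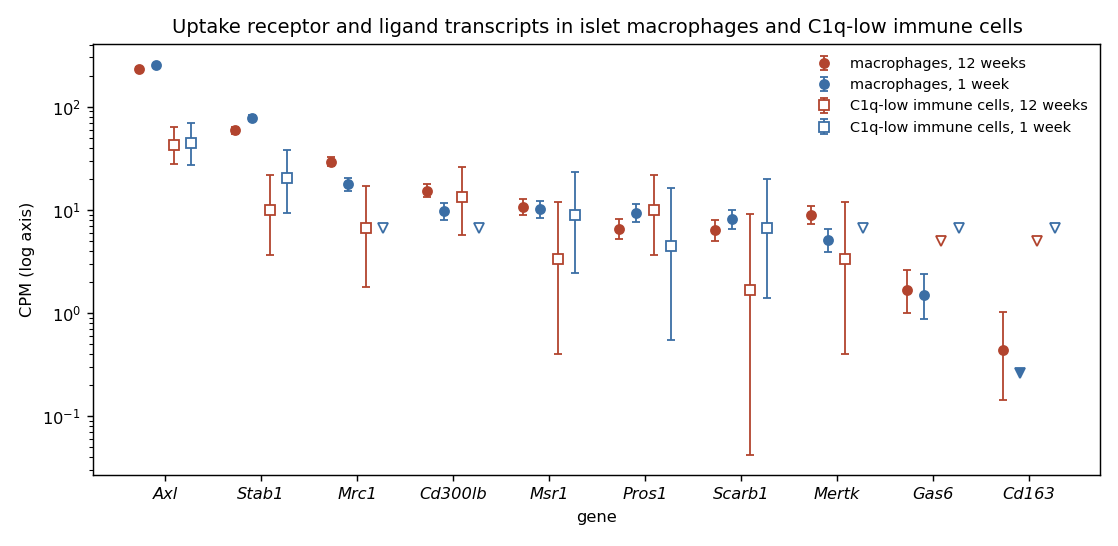
CPM (log axis) of the 10 genes in macrophages (filled circles) and C1q-low immune cells (open squares), 12 weeks in red left of 1 week in blue, with 95% counting intervals. Triangles mark genes with 0 UMIs at the level that 3 counts would give. Axl in macrophages lies at 233.4 and 252.1, above every other gene in both libraries.

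The first question was how often these genes were detected in single macrophages once every cell had the same depth. Each cell was thinned to 3000 UMIs, which kept 1530 macrophages at 12 weeks (90 shallower ones were left out) and 1089 at 1 week (154 left out). Axl had a UMI in 48.4% of thinned macrophages at 12 weeks (95% exact interval 45.8 to 50.9) and in 53.6% at 1 week (50.6 to 56.6). Without thinning the shares were 75.6% and 77.6%. In thinned C1q-low immune cells Axl was found in 5 of 72 cells at 12 weeks (6.94%) and in 4 of 51 at 1 week (7.84%). Thinning left out 51 of 123 such cells at 12 weeks and 20 of 71 at 1 week. Among those left out were 7 of 11 and 11 of 15 macrophage-like cells. Without thinning the shares in C1q-low immune cells were 13.8% and 16.9%. Intervals cover counting error only.

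Stab1 was detected in 15.1% of thinned macrophages at 12 weeks and 19.2% at 1 week, and Mrc1 in 7.65% and 3.95%. Each of the remaining 7 genes was seen in fewer than 1 cell in 20 at this depth. Cd300lb was found in 3.86% of thinned macrophages at 12 weeks and 2.11% at 1 week, Msr1 in 3.14% and 2.75%, Mertk in 2.61% and 1.38%, Pros1 in 2.09% and 2.85%, and Scarb1 in 2.09% and 1.93%. Gas6 was found in 0.458% at 12 weeks and 0.367% at 1 week. Cd163 was found in 0.131% of cells at 12 weeks and in 0 of 1089 cells at 1 week, which allows a share of up to 0.275% of cells with a UMI. These shares are sparse, and a macrophage with no UMI of a gene at this depth is not shown to lack it.

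The spread of Axl counts over thinned macrophages was somewhat wider than that of Poisson counts. At 12 weeks 32.9% of thinned macrophages had 1 Axl UMI, 10.9% had 2 and 4.58% had 3 or more, with a maximum of 6. At 1 week the shares were 33.4%, 14.7% and 5.51%, with a maximum of 5. The ratio of variance to mean, which is 1 for Poisson counts, was 1.16 at 12 weeks and 1.08 at 1 week for Axl, and 1.12 and 1.19 for Stab1. Mean counts were 0.702 and 0.809 UMIs per cell for Axl and 0.173 and 0.229 for Stab1. At means this low the ratio stays near 1 even where levels vary between cells, so an even spread is not shown. A Poisson distribution of the same mean would give Axl in 50.4% of macrophages at 12 weeks and 55.5% at 1 week. Mrc1 departed further at 1 week, with a ratio of 1.46 against 1.15 at 12 weeks, and 3 cells there held 3 or more thinned UMIs.

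**Figure D2:**
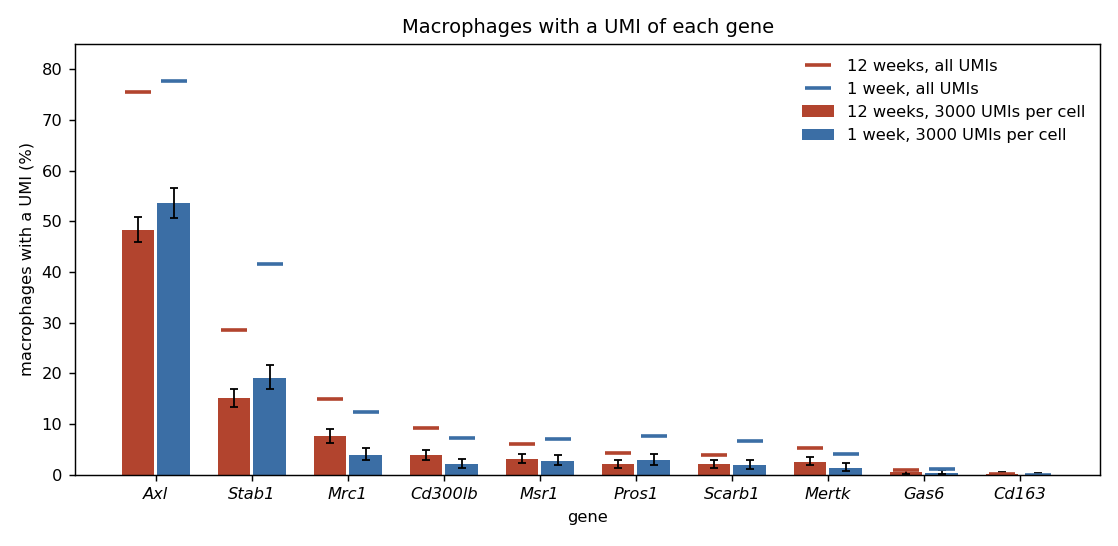
Percentage of macrophages with a UMI of each gene, 12 weeks in red left of 1 week in blue. Bars give cells thinned to 3000 UMIs with 95% exact intervals and dashes give all UMIs. Axl reaches 48.4% and 53.6% at equal depth, Stab1 15.1% and 19.2%, and the other genes stay below 10%.

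The next question was whether the receptors occurred together in the same macrophages. Of 45 possible pairs, 11 at 12 weeks and 10 at 1 week had at least 5 cells given by the product of their 2 detection shares. Over these pairs the number of cells with both genes was a median of 1.04 times the product at 12 weeks (range 0.905 to 1.79) and 0.970 times at 1 week (0.746 to 1.09). None of these pairs had a 95% interval that lay wholly above or below 1 in either library. Among the 34 pairs with fewer such cells at 12 weeks and the 35 at 1 week, 1 in each library had an interval above 1. These were pairs of Mertk with a ligand, Gas6 at 12 weeks (2 cells against 0.183 given by the product) and Pros1 at 1 week (3 cells against 0.427), and in the other library the same pairs had 0 cells and 1 cell with both genes. Stab1 was found in 15.7% of Axl-positive and 14.6% of Axl-negative macrophages at 12 weeks, and in 20.9% and 17.2% at 1 week. Mrc1 was found in 8.51% of Axl-positive and 6.84% of Axl-negative macrophages at 12 weeks, and in 3.42% and 4.55% at 1 week. Among the pairs with at least 5 cells given by the product, the highest ratio was that of Stab1 with Msr1 at 12 weeks. This pair had 13 cells against 7.25 given by the product at 12 weeks, and 6 cells against 5.76 at 1 week.

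Most macrophages showed 0 or 1 of the 10 genes at equal depth. At 12 weeks 36.01% of thinned macrophages had none of them, 45.8% had 1, 15.6% had 2, 2.16% had 3 and 0.523% had 4 or more. The products of the single shares gave 35.0%, 47.1%, 15.6%, 2.20% and 0.169%. At 1 week the observed shares were 32.9%, 48.9%, 15.7%, 2.39% and 0.184%, against 32.1%, 49.8%, 16.2%, 1.86% and 0.109% from the products. The share with 4 or more at 12 weeks came from 8 cells, and its exact interval of 0.226 to 1.03% lay above the share from the products. At 1 week 2 cells had 4 or more, and the interval of 0.0222 to 0.662% included the share from the products. A weak association would not be detectable, because the intervals of pairs other than Axl with Stab1 were wide.

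**Figure D3:**
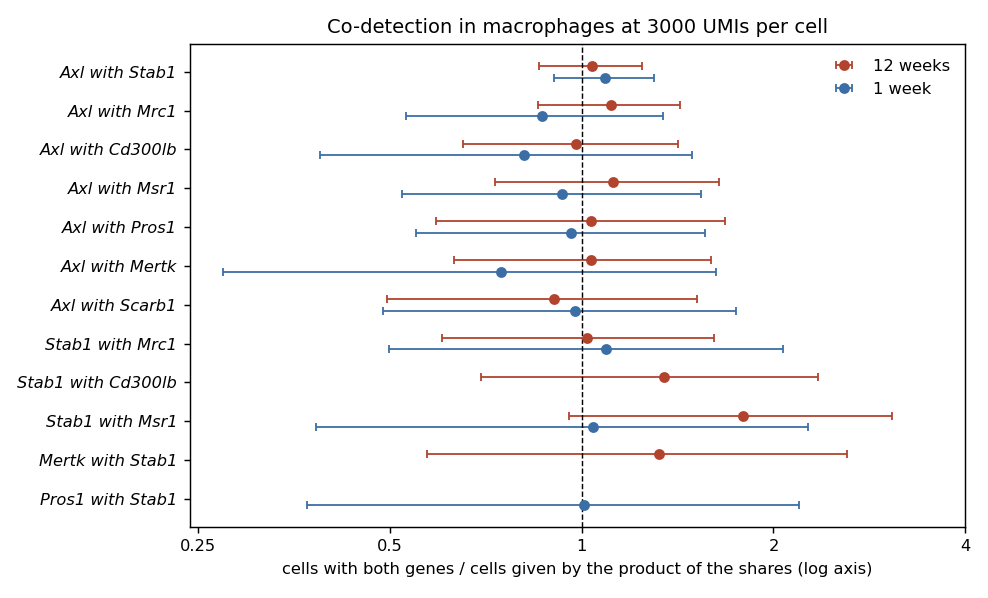
Ratio of macrophages with both genes to the number given by the product of their shares (log axis), for pairs with at least 5 such cells, 12 weeks in red above 1 week in blue, with 95% intervals. All intervals include 1, and the ratios run between 0.746 and 1.79.

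A search for the genes most like each member across thinned macrophages gave no stable neighbours. For the 6 members with enough positive cells the 18 named neighbours had a correlation of at most 0.092 in the library where it was lower. With another random thinning only 4 members qualified and 12 pairs were named. Of the 18 pairs 1 was found again, so none is named here.

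Set against C1q-low cells of the same libraries, the receptors Axl and Stab1 were higher in macrophages. Axl had 233.4 CPM in macrophages at 12 weeks and 252.1 at 1 week, against 34.2 and 17.5 in all C1q-low cells and 42.9 and 44.9 in C1q-low immune cells. Its mean was 242.7 ± 13.3 in macrophages and 43.9 ± 1.40 in C1q-low immune cells (SD, n = 2 libraries). Both macrophage values lay above both C1q-low values. The log2 fold change against all C1q-low cells was 3.48 (SE 0.30), with an adjusted p of 1.10e-08 from edgeR's quasi-likelihood test with Benjamini-Hochberg adjustment.

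Stab1 had 58.8 CPM in macrophages at 12 weeks and 76.8 at 1 week, against 9.91 and 20.2 in C1q-low immune cells. Its log2 fold change against all C1q-low cells was 3.18 (SE 0.33, edgeR adjusted p 1.91e-07). Mrc1 had 29.4 and 17.6 in macrophages, against 6.60 (4 UMIs) at 12 weeks and 0 UMIs at 1 week in C1q-low immune cells. Its fitted log2 fold change against all C1q-low cells, with 4 UMIs at 12 weeks and 0 at 1 week, was 3.69 (SE 0.57, edgeR adjusted p 2.35e-05), a size that depends on the handling of the 0. With 3 counts in place of the 0, the log2 difference at 1 week was at least 2.75 against all C1q-low cells and at least 1.39 against C1q-low immune cells. Mrc1 entered the test through its macrophage counts alone, so its call is a description of where it was counted.

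Mertk, Msr1 and Cd300lb had adjusted p under 0.05 at low counts. Mertk and Cd300lb, like Mrc1, entered the test through their macrophage counts alone, and nothing is supported with their calls. Mertk had 103 UMIs in macrophages at 12 weeks and 58 at 1 week, against 2 and 0 in all C1q-low cells (fitted log2 fold change 2.94, SE 0.84, edgeR adjusted p 0.00905). Its ratio at 12 weeks was 3.55 with a 95% counting interval of 0.958 to 29.7, and at 1 week it was at least 1.94-fold higher when 3 counts replaced the 0. Msr1 had 123 and 115 UMIs in macrophages, against 2 and 4 in C1q-low cells (1.89, SE 0.57, edgeR adjusted p 0.0136). Cd300lb had 176 and 110 UMIs in macrophages, against 8 and 0 in C1q-low cells (1.85, SE 0.59, edgeR adjusted p 0.0189). Its ratio was 1.52 at 12 weeks (0.753 to 3.57), and at 1 week it was at least 3.68-fold higher. The 12-week intervals of Mertk and Cd300lb thus included 1, and that of Msr1 (1.15 to 35.4) did not. When endocrine- and endothelial-like cells were left out of the C1q-low group, Mertk remained at an adjusted p of 0.0494 in the edgeR test, whereas Msr1 was at 1.15 (adjusted p 0.176) and Cd300lb at 1.15 (adjusted p 0.122) and passed no longer. None of these 3 passed in DESeq2, with adjusted p of 0.123 for Mertk, 0.172 for Msr1 and 0.0927 for Cd300lb.

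Scarb1 and Pros1 did not pass the test. Scarb1 had a log2 difference of 0.64 (SE 0.53) with an edgeR adjusted p of 0.404. Pros1 had 6.56 CPM in macrophages at 12 weeks and 9.38 at 1 week, against 10.1 and 3.49 in C1q-low cells. Its ratio lay below 1 at 12 weeks (0.646, 95% counting interval 0.312 to 1.55) and above 1 at 1 week (2.68, 1.02 to 10.0). Its fitted log2 difference was 0.50 (SE 0.52, edgeR adjusted p 0.529). Gas6 and Cd163 were below the filter on low counts. Of the 10 genes 8 were tested, 6 were higher and 0 lower, while 16.5% of 11109 genes tested were higher and 15.9% were lower. Of the 8 tested, 3 (Mrc1, Mertk and Cd300lb) passed the filter through their macrophage counts alone, so the count of 6 is not read as support either. Without endocrine- and endothelial-like cells 4 members were higher, against 15.4% of all genes. The p-values rest on 4 summed profiles with 1 residual degree of freedom per gene and a spread shared across genes, and they measure only how macrophage and C1q-low cells differed in these 2 libraries.

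**Figure D4:**
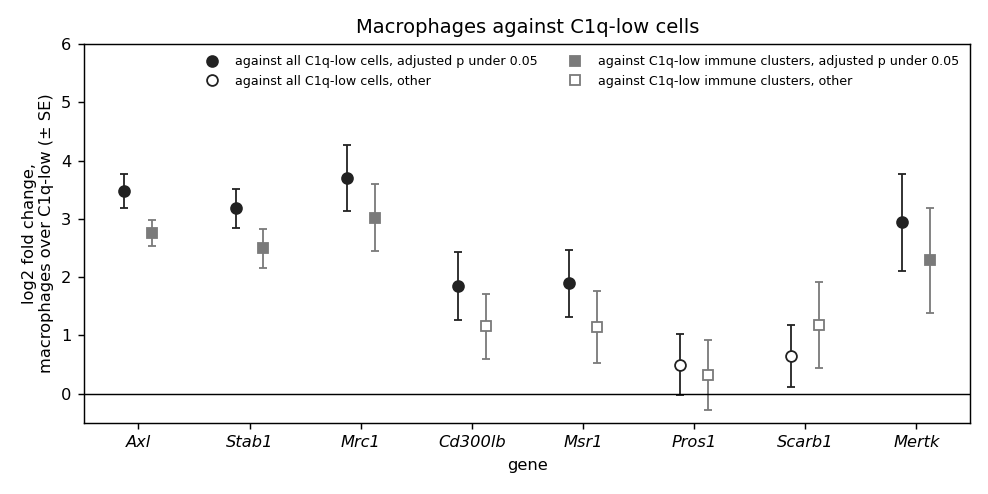
Log2 fold change of macrophages over C1q-low cells (± SE) for the 8 genes tested, against all C1q-low cells (black circles) and against C1q-low immune clusters (grey squares). Filled symbols have an edgeR adjusted p under 0.05. Axl, Stab1, Mrc1 and Mertk are filled in both comparisons, Cd300lb and Msr1 in the first, and Pros1 and Scarb1 in neither.

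Within the C1q-low cells the UMIs of these genes were not spread evenly over cell types. Stab1 had 6 of its 7 C1q-low UMIs at 12 weeks in macrophage-like cells and 6 of 9 at 1 week, at 128.6 and 116.0 CPM. It had 0 UMIs in T- and dendritic-like cells of both libraries. Msr1 had all of its C1q-low UMIs, 2 at 12 weeks and 4 at 1 week, in monocyte-like cells, at 54.3 and 57.3 CPM. Cd300lb had 3 of its 8 C1q-low UMIs at 12 weeks in 10 neutrophil-like cells. These counts are small, and no test was run between the classes.

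Axl had the most UMIs of the members in C1q-low cells, 27 at 12 weeks and 20 at 1 week. The shallow macrophage-like cells under the C1q gate held 5 of them at 12 weeks (107.1 CPM) and 14 at 1 week (270.7 CPM). Dendritic-like cells had 15 Axl UMIs at 12 weeks (69.7 CPM, 95% interval 39.0 to 114.9) and 0 at 1 week. This class was made up differently in the libraries, with 15 cells from cluster 5, led by Ccl17 and Ccr7, and 12 from cluster 16, led by Timd4 and Kit, at 12 weeks, against 2 and 8 at 1 week. At 12 weeks cluster 5 held 10 and cluster 16 held 5 of the Axl UMIs. Monocyte-like cells had 54.3 CPM at 12 weeks and 86.0 at 1 week, from 2 and 6 UMIs. B-like cells had 2 Axl UMIs at 12 weeks (17.8 CPM) and T-like cells 2 (11.3 CPM), and both had 0 at 1 week. In a comparison with B-, T- and dendritic-like cells as separate profiles only Axl and Stab1 passed the filter, and both were higher in macrophages, Axl by 4.31 on the log2 scale (SE 0.46, edgeR adjusted p 8.62e-08). Stab1 had 0 or 1 UMI in those profiles, so its fitted size is not given.

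Other genes for the uptake and digestion of dying cells were taken from lists. Their fold changes and calls are against all C1q-low cells, endocrine-like droplets included. Of 17 other uptake receptors tested 13 were higher in macrophages and 2 were lower. Trem2, a lipid receptor (log2 fold change 4.75), Itgb5, an integrin subunit that binds the bridging protein Mfge8 (3.91), and Cd14, the endotoxin co-receptor (3.83), were higher. Timd4, a phosphatidylserine receptor, was lower (-5.91), with 1 UMI in macrophages at 12 weeks and 8 at 1 week, against 42 and 15 in C1q-low immune cells. Itgb3 was the other lower gene. Of 7 bridging molecules 3 were higher, Apoe (4.51), Lgals3 (2.63) and Anxa5 (2.29), and Anxa1 was lower (-0.85).

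Of 13 genes of the engulfment machinery 6 were higher and 0 lower, among them the adaptor gene Tyrobp (2.13), Abr (1.89), the kinase gene Syk (1.53) and Elmo1 (1.35). Against C1q-low immune cells the direction of Elmo1 differed between libraries. It had 72.3 CPM in macrophages and 76.0 in those cells at 12 weeks, and 82.6 and 33.7 at 1 week. Of 18 genes for digestion, cholesterol efflux and nuclear receptors 10 were higher and 0 lower, among them the lysosomal lipase gene Lipa (3.45), the cholesterol exporter gene Abca1 (2.54), Ucp2 (2.29) and Pparg (2.25). Of 9 genes for do-not-eat-me signals and receptor shedding 5 were higher and 2 lower. Siglece (3.01) and Adam17 (2.73), which encodes a protease that sheds receptors, were higher, while Siglecg (-3.94) and Cd24a (-3.78), which binds Siglec-G, were lower. All these calls have an edgeR adjusted p under 0.05. Over the 5 lists 37 of 64 tested genes were higher (57.8%) and 5 lower, with a median log2 fold change of 1.09, against 16.5% higher and a median of 0.01 over all genes. These list counts use all C1q-low cells, and none was made against C1q-low immune cells alone. The lists were chosen with earlier results of these data known, and Cd68 and Apoe on them are also macrophage markers. The share higher in macrophages is therefore a description and not read as support.

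Mrc1 and Cd163 are also used as markers of macrophages outside the islet. Of 13 further stromal macrophage markers 4 were at 0 in macrophages at 12 weeks and 3 at 1 week. Apart from Pf4 they summed to 32 UMIs at 12 weeks and 45 at 1 week, while Mrc1 alone had 336 and 201. Pf4 had 249 UMIs at 12 weeks and 369 at 1 week. It stood at 27.5 CPM in macrophages with an Mrc1 UMI and 20.6 in those without at 12 weeks, and at 52.8 and 28.1 at 1 week, where 1 cell held 42 of the UMIs. Macrophages with an Mrc1 UMI had 130.7 CPM of Itgax at 12 weeks, against 123.9 in those without, and 157.4 against 133.2 at 1 week. Cx3cr1 stood at 128.1 with and 119.4 without Mrc1 at 12 weeks, and at 147.8 and 160.5 at 1 week. Lyz2, of the same marker list, was higher with Mrc1, at 3101 against 2204 CPM at 12 weeks and 3007 against 2490 at 1 week. These islet macrophage genes were thus present in Mrc1-positive cells as well as in the others. The endocrine transcript Ins2 was lower with Mrc1, at 1200 against 4770 CPM at 12 weeks and 1561 against 15029 at 1 week. Ins1, Iapp, Chga and Pcsk2 were also lower with Mrc1 in both libraries. Gcg and Sst were higher with Mrc1 at 12 weeks, at 27.48 against 17.98 and 26.96 against 20.92 CPM. At 1 week both were lower with Mrc1, at 68.04 against 1604 and 7.617 against 158.1 CPM. The macrophages included some endocrine-like cells, and their part in these levels was not tested. No test was run on this split of cells. Mrc1-positive cells were deeper, with medians of 7850 against 6763 UMIs at 12 weeks and 9437.5 against 7199 UMIs at 1 week.

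Macrophage-like cells formed 9 clusters with at least 20 cells in each library, from a clustering that left out the 10 genes. Clusters 2 and 15, with 6 and 10 macrophages at 12 weeks and 183 and 45 at 1 week, are not among the 9. Between the highest and the lowest of them Axl differed 1.43-fold at 12 weeks and 1.58-fold at 1 week. It was highest in cluster 4, led by the interferon-response genes Ifit3 and Ifit2, at 293.2 CPM at 12 weeks (95% interval 262.7 to 326.2) and 336.2 at 1 week (296.8 to 379.2). Cluster 10, led by Il10 and Cxcl1, came next at 260.2 at 12 weeks (228.9 to 294.6), which overlaps cluster 4, and at 280.4 at 1 week. The medians of Axl over the 9 clusters were 231.3 and 260.0. Stab1 was highest in cluster 7, led by Rab3il1 and Lpin1, at 143.0 at 12 weeks (117.5 to 172.3) and 106.7 at 1 week (71.4 to 153.2), against 33.5 and 63.3 in cluster 8, which was led by the heat-shock genes Hspa1b and Hspa1a. At 1 week the Stab1 interval of cluster 7 overlapped that of cluster 8. Cluster 1, led by Clec4a3 and Mmd, stood almost as high there, at 104.3 (90.2 to 120.1), and cluster 4 was lowest at 54.8. These are descriptions without a test, because the clusters were made from the same cells.

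Of the 9 clusters Mertk was highest in cluster 11, led by Dopey2, Hspa1b, Slc5a3 and the immediate early gene Fosb. This cluster held 11.9% of macrophages and 42 of 103 Mertk UMIs (40.8%) at 12 weeks, and 5.95% of macrophages and 6 of 58 UMIs (10.3%) at 1 week. Its level there was 30.9 CPM at 12 weeks and 12.3 at 1 week, against 6.05 and 4.76 in the other macrophages. At 1 week cluster 2, led by Zfp512 and Ccnb1ip1, held more of it, 16 of 58 UMIs at 18.9 CPM (95% interval 10.8 to 30.7), and its 6 macrophages at 12 weeks had 0 Mertk UMIs. In cluster 3, led by Il12b and Il1a, Mertk had 0 UMIs in both libraries. Cd300lb was highest at 12 weeks in clusters 7 and 6, at 31.2 and 26.7 CPM, where it had 18.4 and 22.6 at 1 week, and it stood at 5.93 and 5.55 in cluster 8. Heat-shock and immediate early genes can be induced by cell isolation, and their part in these levels was not tested.

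**Figure D5:**
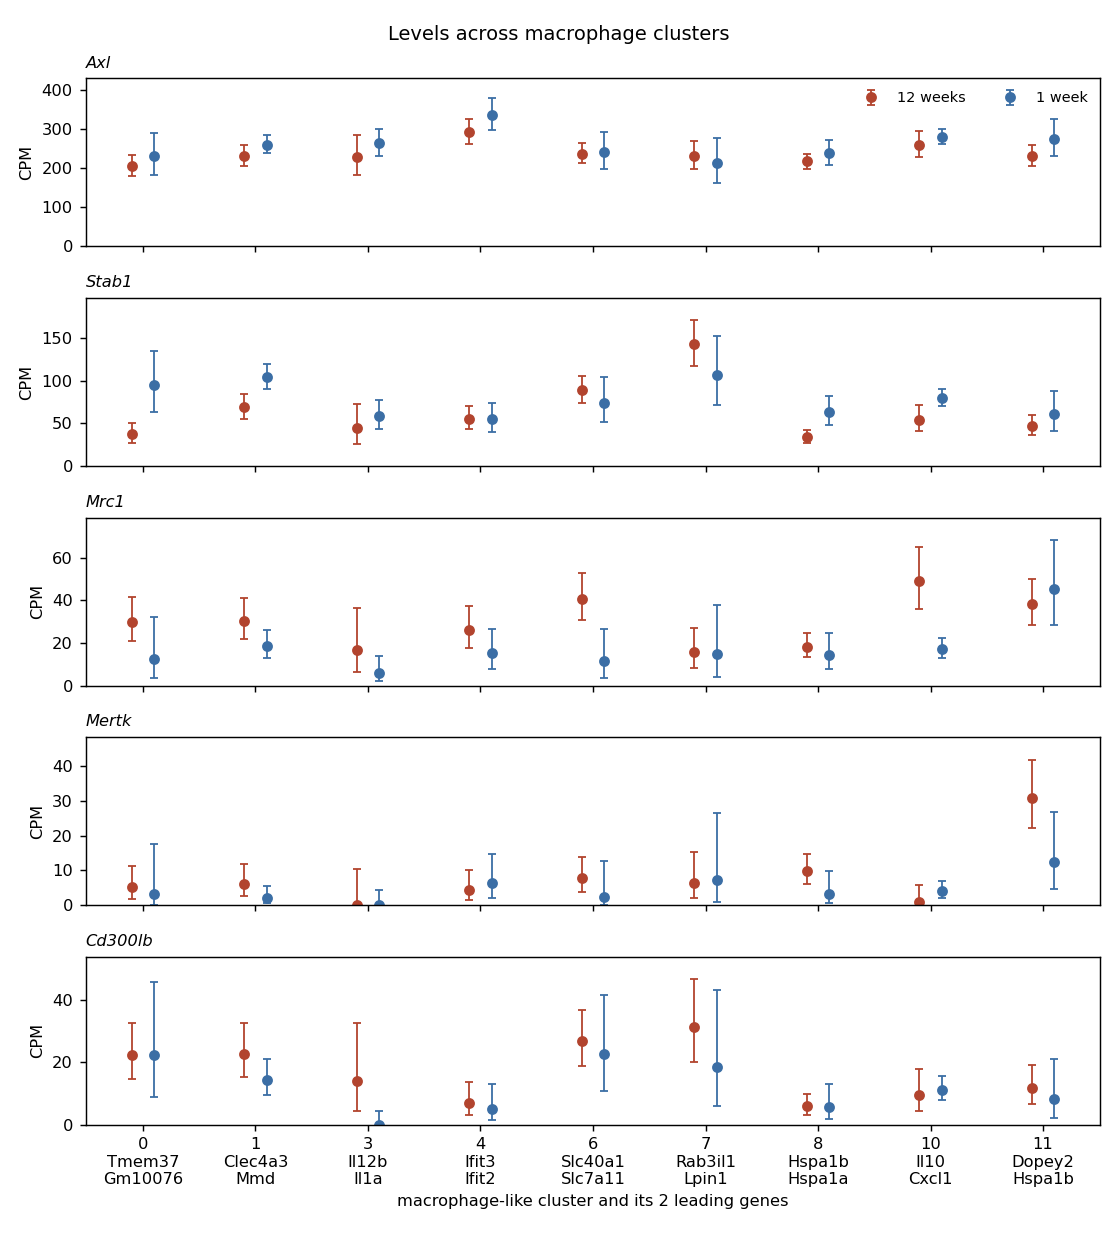
CPM of Axl, Stab1, Mrc1, Mertk and Cd300lb in 9 macrophage-like clusters, 12 weeks in red left of 1 week in blue, with 95% counting intervals. Among these 9, Axl is highest in cluster 4 and Mertk in cluster 11 in both libraries; cluster 2, where Mertk stood at 18.9 at 1 week, is not drawn because it has 6 macrophages at 12 weeks.

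The last comparison set the 12-week over the 1-week macrophages. With 1 library per label it has no replicate check, and genes past 1.5-fold are named by size alone. Mertk (9.002 against 5.08 CPM, ratio 1.77, 95% counting interval 1.27 to 2.49), Mrc1 (29.4 against 17.6, 1.67, 1.40 to 1.99) and Cd300lb (15.4 against 9.64, 1.60, 1.25 to 2.04) were past 1.5-fold. Over all 11564 genes compared 22.9% were past 1.5-fold (8.42% higher at 12 weeks), and 15.9% of the 4502 genes with 100 to 600 UMIs were. Of the 9 members with a ratio 3 were past it, and with so few members nothing is read from that count. The Mertk ratio was 1.27 when cluster 11 was left out and 1.25 when each cell was weighted equally, below 1.5-fold in both cases, and 1.75 when the 9 clusters were weighted equally. With clusters weighted equally the Cd300lb ratio was 1.40, below 1.5-fold, and that of Mrc1 was 1.71.

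The other members stayed within 1.5-fold. Axl had a ratio of 0.926 (95% counting interval 0.878 to 0.976), Stab1 0.766 (0.692 to 0.848), Pros1 0.699 (0.513 to 0.948), Scarb1 0.783 (0.568 to 1.07), Msr1 1.07 (0.820 to 1.39) and Gas6 1.11 (0.548 to 2.28). Over the 9 clusters Mrc1 was higher at 12 weeks in 8, Cd300lb in 8 and Mertk in 5, while Axl was lower at 12 weeks in 8 and Stab1 in 6. With each cell weighted equally the Stab1 ratio was 0.641, past 1.5-fold. Hormone transcripts in macrophages differed between the libraries by more than these ratios, at 0.574% at 12 weeks and 1.97% at 1 week, and their part in the ratios was not tested. The macrophage gate let in some cells of the endocrine-like cluster in both libraries.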

How the data were processed

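Immune cells from mouse islets were profiled in 2 droplet libraries, 1 per time label. Each deposited matrix holds raw counts of UMIs, by gene and barcode. The authors mapped reads to mm10 and counted them with Cell Ranger, per the submitters' processing notes, and the matrix header gives software version 3.1.0, per the file headers. The cell-calling step is not given in the sources. Libraries were taken as groups by their time label, since their titles number them as replicates.

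Kept were barcodes with 500 or more genes, 1000 or more UMIs and a mitochondrial share of up to 10%, 1752 at 12 weeks and 1340 at 1 week. No doublets were called or removed. C1q-low cells were named from Leiden clusters (scanpy 1.11.5, 2000 variable genes without the 10 members, 30 components, 15 neighbours, resolution 1). A class name needed 3 of its markers among a cluster's 30 leading genes, and clusters with no other name were called macrophage-like where macrophage markers were found in over 60% of cells on average. A cluster with markers of both neutrophils and dendritic cells was split again at resolution 0.5. Of the dendritic-like clusters 1 was led by Timd4 and Kit.

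Counts were summed per library and gate and tested with edgeR 4.0.16 (R 4.3.3, TMM, filterByExpr, quasi-likelihood, library as a block, Benjamini-Hochberg, 0.05). The test was also run on simulated counts in which far fewer genes were changed than were called here. That run does not check the calls of the members. The C1q genes set the gate and were left out. Since both gates come from the same pool of mice, the library pairs them. Cells were thinned by drawing 3000 UMIs without replacement. Levels have exact Poisson intervals and shares exact (Clopper-Pearson) intervals at 95%, which cover counting error only, and a count of 0 is given the limit of 3 counts. Time labels were compared as ratios without a test. Neighbours were ranked by Pearson r of log2(thinned count + 1) among genes found in at least 5% of cells, for members found in at least 2% of cells of both libraries.

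Every listed member is named. From each pathway list up to 4 genes with the largest log2 fold change among those past the test are named, other genes being named where a count of 5 or fewer called for it. Tyro3 was named after its values were seen, as were the cells and clusters singled out. The members, gene lists and markers were chosen with earlier results of these data known. Alternatives covered scaling, filter, tool, block, gates, thinning depth and seed, cell filters, cell classes and cell weights. Sequences come from RefSeq (GRCm38.p6) and positions from GENCODE on GRCm38. Protein sequences were not used here.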

Additional observations from a re-analysis of the deposited data

Results flagged for a closer look

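Pros1 had ratios on opposite sides of 1 in the 2 libraries when macrophages were set against C1q-low cells. Its log2 ratio was -0.63 at 12 weeks and 1.42 at 1 week, a difference of -2.06 between the labels. Only 8 Pros1 UMIs at 12 weeks and 4 at 1 week were found in C1q-low cells, and in C1q-low immune cells 6 and 2. The 95% counting interval of the ratio was 0.312 to 1.55 at 12 weeks, which included 1, and 1.02 to 10.0 at 1 week. Against C1q-low immune cells both intervals included 1 (0.290 to 1.86 and 0.564 to 17.5). An opposite direction is thus not shown. With 1 library per label the difference between the labels was not tested. No group had enough samples to look for a sample far from the others.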

How the results depend on the processing

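Of the members higher in macrophages, 3 were called by DESeq2, 3 after thinning to 3000 UMIs (7 tested) and 2 against B-, T- and dendritic-like profiles (2 tested), instead of 6. Under the other settings between 4 and 6 were called. Without the replicate block 4 members and 1237 genes were higher. No member was called lower under any setting of the edgeR and DESeq2 fits; 0 members were lower at an unadjusted p under 0.05 in edgeR. Axl and Stab1 were called under each of these settings, and Mrc1 under each in which it was tested. Since Mrc1 entered the main test through its macrophage counts alone, its repeated calls are not read as support. Over all genes DESeq2 called 1059 higher and 1106 lower, thinned counts 1084 and 718, and B-, T- and dendritic-like profiles 783 and 402, against 1831 and 1770. Genes lower numbered 1006 with C1q-low cells held to at most 1 UMI, 1089 without endocrine- and endothelial-like clusters and 1068 with macrophage-like cells set against the other immune clusters. The last pair of alternatives, the removal of hormone transcripts, the alternatives by cluster of the time ratio and the second seed for neighbours were chosen after seeing the data. Without a library no test is possible, and the log2 ratio of Pros1 was -0.63 without the 1-week library and 1.42 without the 12-week library. Those of Axl were 2.77 in the 12-week and 3.85 in the 1-week library.

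At 2000 UMIs 3 members, instead of 6, were found in at least 2% of macrophages of both libraries. The median co-detection ratio was 1.12 at 12 weeks with another seed. At 1 week it was 1.14 with another seed, 1.08 at 2000 UMIs, 1.04 at 5000 UMIs and 0.897 with stricter cell filters. Neighbours named again numbered 12 with Spearman's rho, 1 at 5000 UMIs and 1 with another seed, out of 18. With another seed only 12 pairs of 4 members were named, so not all 18 could recur. All 60 detection shares recomputed at 3000 UMIs with another seed, gate or cell filter lay within the intervals given. The cause of these changes was not tested. Depth limits the rare members. With no filter on low counts Gas6 had an edgeR adjusted p of 0.531 and Cd163 one of 0.868.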

Other observations

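A macrophage of the 1-week library in the cycling cluster 15 held several stromal markers together. It had 6 Mrc1 UMIs, 7 of the 8 Folr2 UMIs and 42 of the 369 Pf4 UMIs found in the macrophages of that library, 3 F13a1 UMIs and 2 Ccl8 UMIs. It had 0 UMIs of Lyve1, Cbr2 and Cd163, 0 Itgax UMIs and 126 C1q UMIs among 7858 UMIs. The other 8 macrophages of that library with at least 3 Mrc1 UMIs, and all 20 such macrophages at 12 weeks, had 0 UMIs of Folr2, F13a1 and Ccl8. The cell was singled out after its values were seen.

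The 2 cells with Cd163 UMIs at 12 weeks were macrophage-like, with 79 and 27 C1q UMIs. Both had 0 UMIs of Lyve1, Folr2, Cbr2, F13a1 and Ccl8. The cell with 4 Cd163 UMIs also had 1 Mrc1 and 1 Pf4 UMI, and the other cell had 0 of both.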
